A study of Mus musculus with 2 samples.

Results

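Branched actin networks push the cell edge forward and drive engulfment, and the genes that build them come largely as paralogs. The genes described here are the subunits of the Arp2/3 complex, its WASP and WAVE activators, the coronins, and a set of actin binders that bundle, cap, sever, elongate or store actin. They were picked by gene symbol, which took 56 genes of the 34295 in the table, on 57 of its 34456 rows. The symbols were listed with earlier results of these data known. Poly(A) RNA had been sequenced from wild-type C57BL/6J mouse cells of 2 kinds, with 1 library each, in a series on a stable system of 2 cell types. The labels do not state what this RNA comparison was for. The fibroblast library came from 100000 mouse embryonic fibroblasts (E13.5-E14.4 embryos without head and red tissue, passage 4 to 7, 10% serum), from which cells bearing CD45, CD11b or F4/80 had been sorted out. The macrophage library came from 750000 bone marrow derived macrophages, grown for 6 days in medium with 10% serum and 30% conditioned medium of L929 fibroblasts, which supplies CSF1. The labels do not say how many embryos or marrow donors were pooled. With 1 library per cell type there is no replicate error and no test, and cell type cannot be told apart from medium, passage, cell number and preparation.

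The Arp2/3 complex has 7 subunits. It binds the side of an existing actin filament and starts a new filament there as a branch. On its own it is nearly inactive: WASP, N-WASP and the WAVE proteins bring it together with an actin monomer, cortactin and its blood-cell relative HS1 hold the branch, and coronins and cofilin take it apart. Several of these steps are served by 1 paralog in most tissues and by another in blood cells. Inherited loss of some of the blood-cell paralogs causes immune deficiency in people.

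Values are transcripts per 1000000 transcripts (TPM) as deposited, and since TPM are corrected for transcript length, levels of different genes within 1 library can be set side by side. Read depth cannot be recovered from TPM, so it is unknown for both libraries and no interval is given. Log2 ratios are fibroblast over macrophage of TPM plus 1, which pulls low genes toward 0. Folds are plain ratios of TPM. To be called, a gene needed a 4-fold or larger ratio of TPM plus 1 and 5 TPM or more on the higher side. In bulk RNA, fewer cells with a transcript and less of it per cell cannot be told apart.

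The libraries matched their labels by defining markers. Each of 17 macrophage markers was called toward macrophages, where they summed to 35726 TPM against 51.0, and each of 15 fibroblast markers toward fibroblasts, where they summed to 13560 TPM against 22.0. Of 9 neutrophil genes, 5 were called toward macrophages, with a sum of 498 TPM there and 1.93 in fibroblasts, while the defining gene Ly6g was listed at 0 in both. Of 5 megakaryocyte and platelet genes, Pf4 stood at 1.02 TPM in fibroblasts, against 633 in macrophages, Ppbp at 24.9 and 0, Gp1bb at 4.74 and 0, Itga2b at 4.69 and 0.229, and Gp9 was listed at 0 in both. B cell, T and NK cell, dendritic and erythroid lists summed to 15.4 TPM or less in each library. On the fibroblast side, 2 of 6 skeletal muscle genes and 1 of 6 neural genes were called, with sums of 13.1 and 21.4 TPM. Many blood-cell actin genes described below are active in neutrophils too, and the part of such cells in the values was not tested.

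Of the 56 genes, 22 (39.3%) were called, 10 higher in fibroblasts and 12 higher in macrophages. The same rule called 7.53% of all genes of the table, 4.67% toward fibroblasts and 2.86% toward macrophages. Of the 56, 6 stayed under 5 TPM in both libraries (Actr3b, Wipf3, Wasf3, Coro6, Coro2b and Pls1). Over the 50 at 5 TPM or more in either library the called share was 44.0%, against 23.1% of the 11191 genes at that level, with 10 of 50 against 14.3% toward fibroblasts and 12 of 50 against 8.77% toward macrophages. Reaching that level in 1 library favours genes that differ. Since the members were listed with earlier results of these data known, their shares are a description and not an independent finding. Of the 34 members at 5 TPM or more in both libraries, 7 (20.6%) were called, 3 toward fibroblasts and 4 toward macrophages, against 5.74% of 8363 genes, 2.67% and 3.07% by direction. The median log2 ratio was -0.32 over the 56 and -0.53 over the 50, against 0.26 over the 11191 genes. Together the 56 genes held 1.66% of the fibroblast library and 2.91% of the macrophage library.

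**Figure D1:**
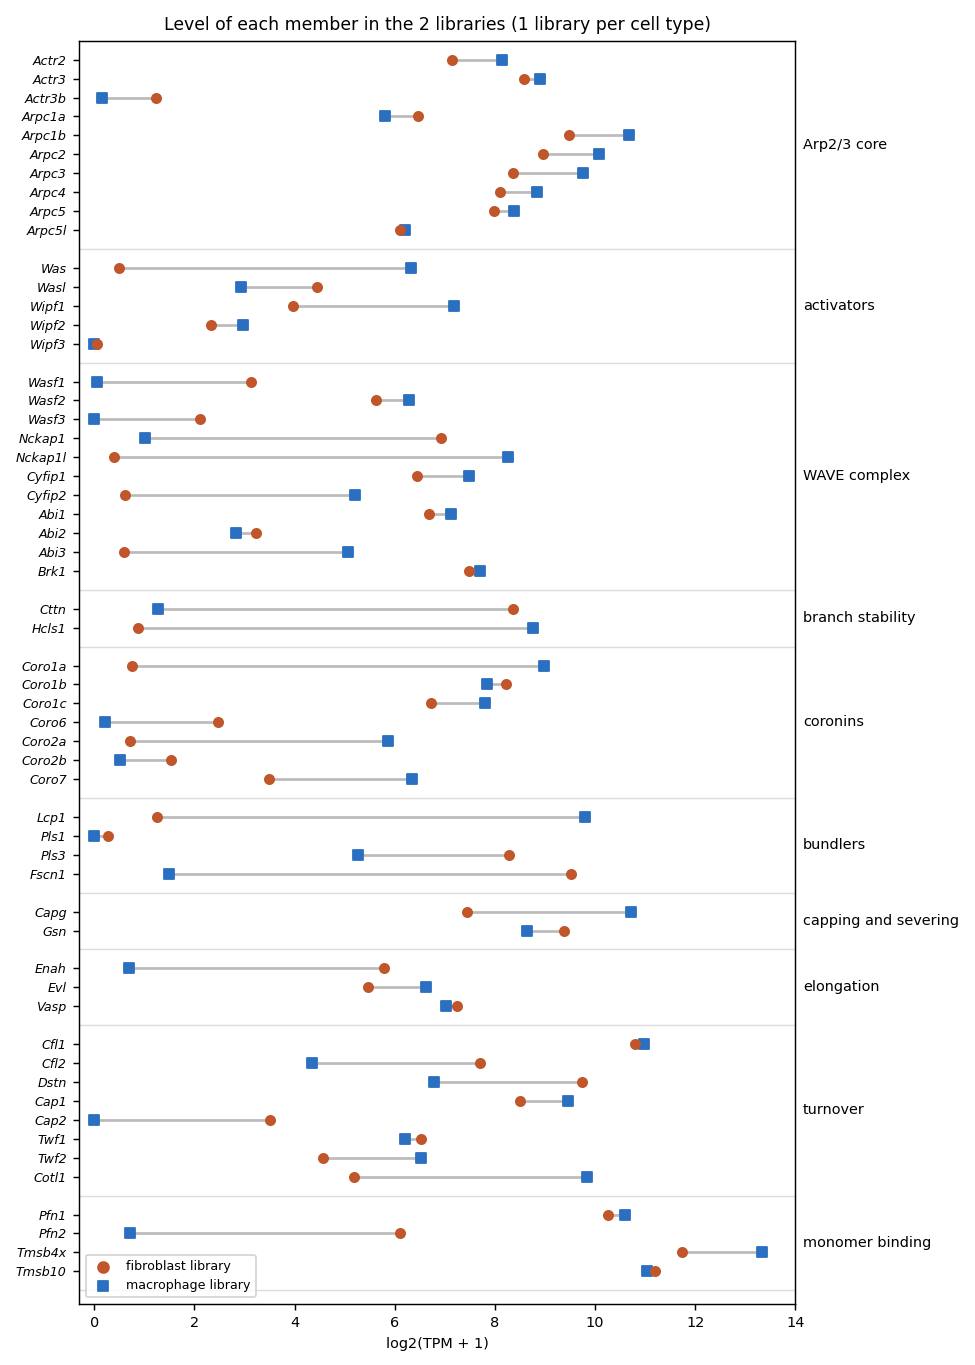
Level of each of the 56 genes as log2(TPM + 1), by role, with circles for the fibroblast library and squares for the macrophage library (1 library each). Arp2/3 subunits sit close together in the libraries, whereas Nckap1 with Nckap1l and Cttn with Hcls1 cross over.

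The Arp2/3 complex itself was made of the same genes in both cells, at higher TPM in macrophages. None of its 10 genes was called. Arpc1b, the main form of the subunit that contacts the activator, stood at 711 TPM in fibroblasts, against 1642 in macrophages. Arpc2 and Arpc3 followed at 499.9 and 327 TPM in fibroblasts and 1072 and 860.0 in macrophages. These had the largest macrophage folds of the core, 2.31 for Arpc1b, 2.14 for Arpc2 and 2.63 for Arpc3. The actin-like subunits Actr2 and Actr3 stood at 141 and 382 TPM in fibroblasts and 279 and 476 in macrophages. Arpc4, at 272 and 457 TPM, is the subunit that with ARPC2 grips the mother filament.

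Summed by subunit position, counting paralogs together, the 7 positions reached 2741 TPM in fibroblasts and 5246 in macrophages, 1.91-fold more. The ratio ran from 1.24 for the Arp3 position to 2.63 for Arpc3. Positions differed more within a library than between libraries: the highest, that of Arpc1a with Arpc1b, stood 5.68 times above the lowest, Actr2, in fibroblasts and 6.07 times above it in macrophages. Protein was not measured.

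The paralog choice inside the complex was close to constant. Arpc1b made up 89.1% of its position in fibroblasts and 96.8% in macrophages, with Arpc1a, the other form, at 86.7 TPM and 54.6 TPM. These paralogs are neighbours on the plus strand of mouse chromosome 5 (GRCm38), Arpc1a at 145083830 to 145108761 and Arpc1b at 145114215 to 145130705, 5454 bases apart. Arpc1a was the 1 core gene above 5 TPM with the higher level in fibroblasts. Arpc5 made up 79.0% and 82.0% of its position, with Arpc5l at 67.3 and 72.9 TPM, nearly level. Actr3b, the minor Arp3 form, was at 1.35 and 0.120 TPM.

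**Figure D2:**
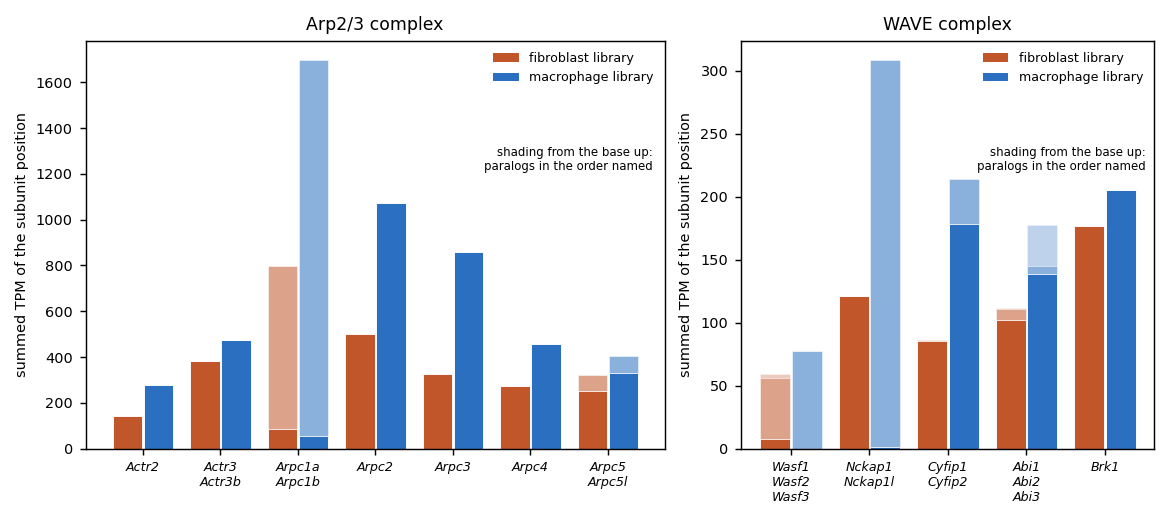
Summed TPM of each subunit position of the Arp2/3 complex (left) and the WAVE complex (right) in the fibroblast and macrophage libraries, stacked by paralog in the order named from the base up. All 12 positions are higher in the macrophage library, and the Nckap1 position changes paralog.

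Some of the core genes held the same promoter word. Promoter windows from RefSeq (GRCm38.p6, 250 bases before to 50 after the gene start) were found for 45 of the 56 genes, 8 of them Arp2/3 genes. The 8-base word CCGGAAGT, the binding letters of GABP-type ETS factors, occurred on either strand in 5 of these 8 (Actr2, Actr3, Arpc1a, Arpc3 and Arpc4), not in Arpc1b, Arpc2 and Arpc5, in 1 of the other 37 members (Coro1c), and in 4.31% of 27025 genes. It was 1 of 7 motifs searched. The 27025 genes include those not expressed here, and the share among expressed genes was not computed. In Actr2 it lay after the start. The other 4 are shown because in each the word ends within 18 bases of the RefSeq start. The 250 bases before the start read as follows, 5′ to 3′, with the word in capitals.
Actr3, chr1:125435728-125435977, minus strand: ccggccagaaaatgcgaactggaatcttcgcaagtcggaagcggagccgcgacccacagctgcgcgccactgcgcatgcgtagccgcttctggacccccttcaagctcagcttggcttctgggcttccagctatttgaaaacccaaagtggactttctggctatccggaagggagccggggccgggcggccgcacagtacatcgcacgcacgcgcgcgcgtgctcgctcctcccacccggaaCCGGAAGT
Arpc1a, chr5:145083619-145083868, plus strand: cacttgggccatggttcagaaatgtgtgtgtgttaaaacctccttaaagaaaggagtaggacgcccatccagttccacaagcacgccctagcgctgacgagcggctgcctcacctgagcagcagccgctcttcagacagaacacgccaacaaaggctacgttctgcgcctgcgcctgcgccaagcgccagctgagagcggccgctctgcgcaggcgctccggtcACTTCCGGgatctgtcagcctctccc
Arpc3, chr5:122391628-122391877, plus strand: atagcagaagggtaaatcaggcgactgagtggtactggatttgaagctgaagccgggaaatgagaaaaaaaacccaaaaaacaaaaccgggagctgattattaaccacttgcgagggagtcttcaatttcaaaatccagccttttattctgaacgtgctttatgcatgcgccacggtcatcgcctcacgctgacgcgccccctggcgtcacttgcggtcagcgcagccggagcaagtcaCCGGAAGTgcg
Arpc4, chr6:113377863-113378112, plus strand: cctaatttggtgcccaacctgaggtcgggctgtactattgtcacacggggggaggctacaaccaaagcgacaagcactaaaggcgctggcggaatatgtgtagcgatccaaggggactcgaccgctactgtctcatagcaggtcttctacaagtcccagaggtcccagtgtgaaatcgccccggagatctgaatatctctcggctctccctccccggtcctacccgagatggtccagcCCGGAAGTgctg
The word ends 0, 18, 3 and 4 bases before the RefSeq start in Actr3, Arpc1a, Arpc3 and Arpc4. In Arpc1a it is read on the opposite strand. The GENCODE start of Arpc1a, at 145083830, lies within the printed stretch and upstream of the word. A match is a description of letters, and binding was not measured.

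In the WASP pair the leading activator gene differed between the cells. Was, which encodes the blood-cell activator WASP mutated in Wiskott-Aldrich syndrome, stood at 0.415 TPM in fibroblasts, against 78.7 in macrophages, 189.8 times as much. Wasl, encoding the broadly used N-WASP, was at 20.8 TPM in fibroblasts, against 6.58 in macrophages, which did not pass the size rule (log2 ratio 1.52). Was thus made up 1.96% of the pair in fibroblasts and 92.3% in macrophages, and the pair summed to 21.2 and 85.3 TPM. Of the WIP family, which binds WASP and keeps it from degradation, Wipf1 was higher in macrophages at 145 TPM against 14.6. Wipf2 stood at 4.03 TPM in fibroblasts, against 6.79 in macrophages, and Wipf3 at 0.0361 and 0. The WIP family summed to 18.7 TPM and 151 TPM, 8.12-fold more in macrophages. Its ratio to the WASP pair was 0.879 in fibroblasts and 1.77 in macrophages.

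Was lies on the X chromosome (8081453 to 8090498, minus strand), and Wasl on chromosome 6 (24613805 to 24665009, minus strand). Their promoters are shown because they differ in CpG, the dinucleotide dense in promoters that are open in most tissues. CpG is in capitals in the 250 bases before the start of each, with Hcls1, described below, as a second gene of the macrophage side.
Was, chrX:8090492-8090741, minus strand: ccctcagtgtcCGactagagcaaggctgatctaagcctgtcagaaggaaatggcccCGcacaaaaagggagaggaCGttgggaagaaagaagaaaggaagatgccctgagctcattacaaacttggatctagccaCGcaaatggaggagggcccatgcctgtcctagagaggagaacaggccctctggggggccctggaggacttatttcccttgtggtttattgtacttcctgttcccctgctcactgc
Wasl, chr6:24664996-24665245, minus strand: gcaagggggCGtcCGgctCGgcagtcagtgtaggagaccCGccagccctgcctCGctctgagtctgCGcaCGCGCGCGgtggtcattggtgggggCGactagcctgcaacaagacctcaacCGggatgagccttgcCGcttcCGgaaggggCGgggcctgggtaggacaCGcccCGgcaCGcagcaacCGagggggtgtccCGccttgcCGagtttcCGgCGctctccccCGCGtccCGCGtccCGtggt
Hcls1, chr16:36934733-36934982, plus strand: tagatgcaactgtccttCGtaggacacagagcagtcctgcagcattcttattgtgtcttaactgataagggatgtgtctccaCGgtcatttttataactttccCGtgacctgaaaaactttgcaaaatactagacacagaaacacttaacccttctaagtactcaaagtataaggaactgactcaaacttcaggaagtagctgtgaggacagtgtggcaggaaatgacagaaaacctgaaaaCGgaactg
The printed stretch holds 4 CpG in Was, 28 in Wasl and 4 in Hcls1. The observed CpG over that expected from base composition was 0.23, 0.92 and 0.39 in the 300-base windows. Taking the highest window of a gene, the ratio was under 0.6 in 4 of 9 members higher in macrophages (44.4%), 2 of 8 higher in fibroblasts (25.0%) and 5 of 28 in neither (17.9%). Among all genes with a window at 5 TPM or more, the corresponding shares were 62.5% of 714, 35.1% of 1162 and 14.3% of 6751. The PU.1-type word GAGGAAGT occurred in none of the 9 macrophage-side windows, in Arpc1b and Coro6, and in 3.69% of all genes, which says only that these letters are not in those windows. The GC box GGGCGG was in 31 of the 45 windowed members and 38.2% of all genes, and the TEAD word GGAATG in 8 members and 16.6% of genes. Hcls1 held the AP-1 word TGANTCA, found in 8.97% of genes, Hcls1 and Fscn1 the TATA word TATAAA, found in 15.7%, and Arpc4 the CArG box, found in 1.81%. All these motif shares are over 27025 genes with a window, expressed or not. Of those, 61.6% had a CpG ratio under 0.6, against 21.1% of the 8627 at 5 TPM or more and 24.4% of the 45 members. CCGGAAGT and GGGCGG each hold a CpG, so their shares over all genes are not a like background for the members.

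In the WAVE complex, which drives Arp2/3 at the leading edge downstream of Rac, 1 of 5 positions exchanged its paralog, 2 gained one in macrophages and the WAVE position itself had more forms in fibroblasts. Nckap1, encoding the scaffold NAP1, stood at 121 TPM in fibroblasts, against 1.03 in macrophages. Nckap1l, encoding its blood-cell form HEM1, stood at 0.318 and 307 TPM. The exchange was nearly complete, from 0.262% Nckap1l in fibroblasts to 99.7% in macrophages, and the sum of the pair was 2.54-fold higher in macrophages, at 308 TPM against 121. Nckap1 is on chromosome 2 (80500512 to 80581380, minus strand) and Nckap1l on chromosome 15 (103453794 to 103498810, plus strand), and both have a coding sequence of 3402 bases with 64.4% identical aligned bases.

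The partner of NAP1 that binds Rac, Cyfip1, was the leading form in both cells, at 85.6 and 178 TPM. Cyfip2 was added in macrophages, at 0.527 TPM in fibroblasts and 35.9 in macrophages, where it reached 16.8% of the pair. Abi1, which joins WAVE to its partners, stood at 102 TPM in fibroblasts, against 139 in macrophages, with Abi2 at 8.43 and 6.14. Abi3 was the other addition in macrophages, at 0.515 against 32.3 TPM and 18.2% of its family there.

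The WAVE proteins themselves were the reverse, with more forms in fibroblasts. Wasf2 led in both libraries, at 48.4 TPM and 77.4. Wasf1 was on the fibroblast side with 7.73 TPM against 0.0381, and Wasf3 stood at 3.35 TPM there and was listed at 0 in macrophages. Wasf2 was 81.4% of the family in fibroblasts and all but 0.0492% of it, which was Wasf1, in macrophages. Brk1, the smallest subunit, stood at 177 and 206 TPM. The 5 positions summed to 555 TPM in fibroblasts and 983 in macrophages, and the WASP pair stood at 0.357 of the WAVE family in fibroblasts and 1.10 in macrophages.

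Cortactin and HS1, which stabilise branches, were exchanged about as completely as the NCKAP1 pair, by 99.4 percentage points in each. Cttn stood at 329 TPM in fibroblasts, against 1.43 in macrophages, and Hcls1, the blood-cell form, at 0.840 and 433. Cttn was 99.7% of the pair in fibroblasts and Hcls1 99.7% in macrophages. The sum was close to level, at 330.1 and 434 TPM, a ratio of 1.31. Of the 8 families whose leading member differed, only this one and the twinfilins had sums within 2-fold. Cttn is on chromosome 7 (144435733 to 144471009, minus strand) and Hcls1 on chromosome 16 (36934983 to 36963212, plus strand).

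Coronins, which oppose branching and help recycle filaments, were added in macrophages rather than exchanged. Coro1a, the leukocyte coronin, stood at 0.693 TPM in fibroblasts, against 501 in macrophages (chromosome 7, 126699773 to 126707787, minus strand). Coro1b, which promotes debranching at the leading edge, and Coro1c, a widespread form, were in both. Coro1b was listed on 2 identical rows of 149 and 114 TPM, which were added to 298 and 228. Coro1c stood at 105 and 223 TPM. Coro1a was 52.6% of the type I family in macrophages, or 59.8% with a single Coro1b row, and 0.170% in fibroblasts. Of the type II pair, Coro2a stood at 0.641 TPM in fibroblasts, against 57.6 in macrophages, and Coro2b, under 2 TPM in both, made up 74.6% of the pair in fibroblasts. Coro7, a Golgi-linked coronin, was higher in macrophages at 80.4 TPM against 10.2, and Coro6 stood at 4.53 and 0.162 TPM. Of the 5 coronins at 5 TPM or more, 3 were called, all toward macrophages. Among all genes at that level, 8.77% were called toward macrophages and 14.3% toward fibroblasts.

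**Figure D3:**
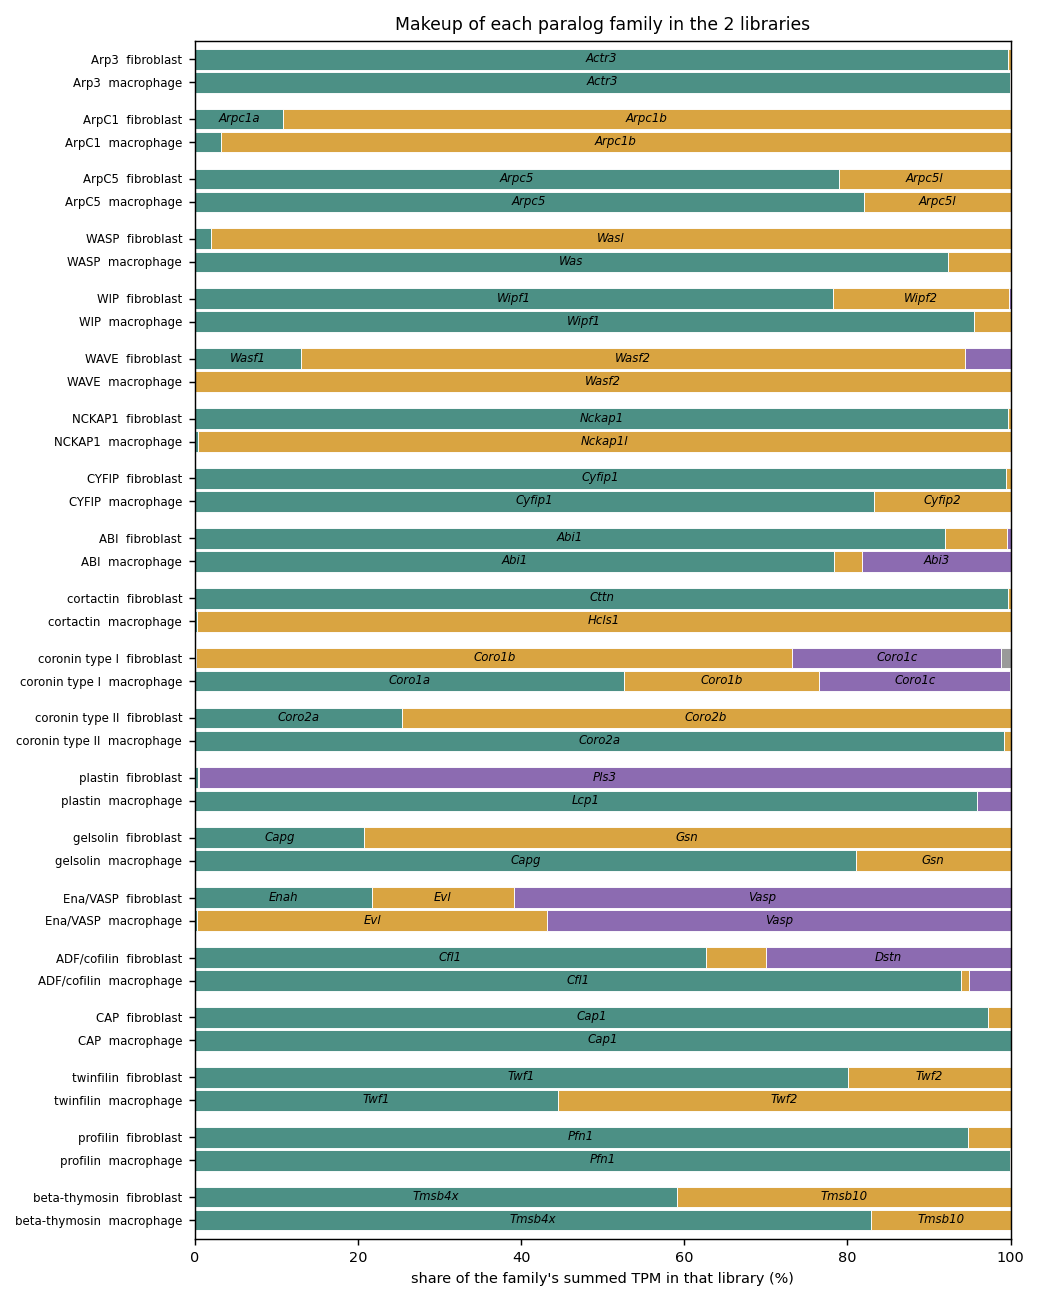
Share of each paralog in the summed TPM of its family, with the fibroblast library in the upper bar and the macrophage library in the lower bar of each of 20 families. The leading member differs in 8 families, among them WASP, NCKAP1, cortactin and plastin, and is the same in 12.

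Among the bundling proteins, which bind filaments into parallel or crosslinked cables, the leading plastin differed between the cells. Lcp1, encoding L-plastin of blood cells, had a log2 ratio of -8.55, the furthest toward macrophages with a pseudocount of 1 though not with 0.1, where Nckap1l (-9.52) and Coro1a (-9.30) passed it (-9.23). Its level was 1.37 TPM in fibroblasts, against 885 in macrophages. Pls3, encoding the widespread T-plastin, stood at 309 and 37.6 TPM, still well above the low levels that Cttn or Nckap1 had in macrophages. Lcp1 made up 0.442% of the plastins in fibroblasts and 95.9% in macrophages, and the plastin sum was 2.97-fold higher in macrophages. Fscn1, encoding fascin of filopodia and the largest log2 ratio toward fibroblasts (8.02), stood at 733 TPM in fibroblasts, against 1.83 in macrophages. Over all 4 bundlers the sum was 1044 and 925 TPM. Lcp1 lies on chromosome 14 (75131101 to 75230842, plus strand), Pls3 on the X chromosome (75785654 to 75875182, minus strand), and Fscn1 on chromosome 5 (142960343 to 142973185, plus strand).

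Of the gelsolin family, Capg, which caps filament ends without severing, was higher in macrophages at 1691 TPM against 173. Gsn, encoding gelsolin, which both severs and caps, stood at 662 TPM in fibroblasts, against 396 in macrophages. The leading form went from Gsn, at 79.3% in fibroblasts, to Capg, at 81.0% in macrophages. Of the Ena/VASP proteins, which keep filament ends growing, Vasp led in both cells at 151 and 129 TPM. Enah was on the fibroblast side with 54.0 TPM against 0.621, and Evl stood at 43.1 TPM in fibroblasts, against 97.7 in macrophages. The 3 together were nearly level, at 248 and 228 TPM, with Enah at 21.7% of the sum in fibroblasts and Evl at 42.9% in macrophages.

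Among the genes of filament turnover, cofilin was constant and its relatives were not. Cfl1, the main severing protein of nonmuscle cells, stood at 1775 TPM in fibroblasts, against 2006 in macrophages. Dstn and Cfl2, encoding destrin and muscle cofilin, were on the fibroblast side, Dstn with 848 TPM against 109 and Cfl2 with 208 against 19.4. Cfl1 was 62.7% of the family in fibroblasts and 94.0% in macrophages, and the family sum was 2832 and 2135 TPM. Cotl1, encoding the small F-actin binder coactosin-like 1, was 25.7-fold higher in macrophages, at 911 TPM against 35.4. Cap1, which recharges monomers coming off filaments, stood at 361 and 706 TPM, and its paralog Cap2 at 10.3 TPM in fibroblasts and listed at 0 in macrophages. Of the twinfilins, which act at filament ends, Twf1 stood at 91.0 and 73.2 TPM and Twf2 at 22.7 and 91.4.

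Twf2, with a log2 ratio of -1.96, was the member just outside the size rule. The members just inside were Coro7 at -2.87 and Dstn at 2.95. Wasf3 and Coro6 passed the ratio, at 2.12 and 2.25, but not the minimum of 5 TPM.

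The 4 monomer-binding genes had the highest sum of any role, 7052 TPM in fibroblasts and 13896 in macrophages, most of it from the thymosins. Tmsb4x, encoding thymosin beta 4, which holds actin monomers in reserve, stood at 3401 TPM in fibroblasts, against 10242 in macrophages, where it was the gene of rank 5 in the library and 1.02% of its TPM. Tmsb10 was close to level at 2357 and 2110.0 TPM, and so was Pfn1, encoding profilin 1, which feeds monomers to growing ends, at 1227 and 1543. Pfn2 was higher in fibroblasts, at 67.8 TPM against 0.649. The thymosins summed to 5758 and 12352 TPM, with Tmsb4x at 59.1% and 82.9%, and did not reach the 4-fold rule.

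**Figure D4:**
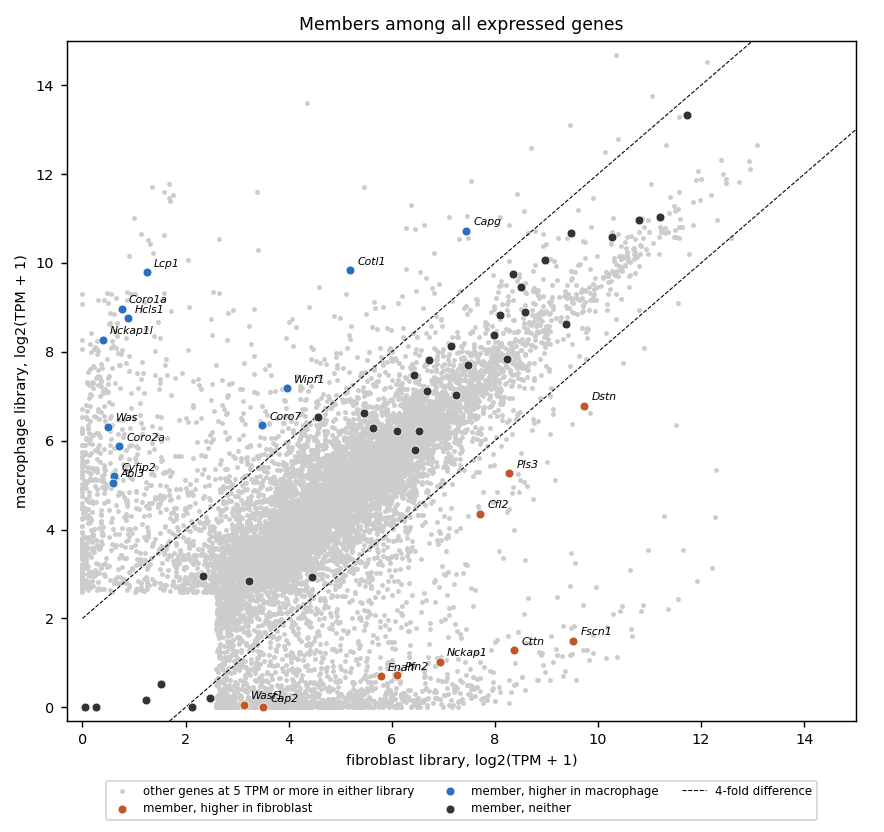
The 56 genes (large points) among the 11191 genes at 5 TPM or more in either library (grey), by log2(TPM + 1) in the fibroblast (x) and macrophage (y) library, with dashed lines at 4-fold. The 12 labelled genes at upper left and the 10 at lower right are those called, and Tmsb4x is the uppermost dark point.

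Across the 20 families with at least 2 members, 10 had sums within 2-fold of each other in the libraries, 10 were at least 2-fold higher in macrophages, and none was at least 2-fold higher in fibroblasts. The leading member differed in 8: WASP, NCKAP1, cortactin, coronin types I and II, plastin, gelsolin and twinfilin. In 3 of these, NCKAP1, cortactin and plastin, over 95% of the family sum moved from 1 gene to another, by 99.4, 99.4 and 95.5 percentage points. In the coronin type II pair the fibroblast levels were under 2 TPM, and its leading form there rests on those low values.

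Low levels of blood-cell paralogs in fibroblasts were close to those of macrophage markers in the same library. The 15 macrophage markers at 100 TPM or more in macrophages stood in fibroblasts at a median of 0.114% of their macrophage level, with a range of 0.0384% to 0.441%. Nckap1l (0.103%), Coro1a (0.138%), Lcp1 (0.155%) and Hcls1 (0.194%) fell within that range, and Was (0.527%), Coro2a (1.11%), Cyfip2 (1.47%) and Abi3 (1.60%) above it. In macrophages, the 11 fibroblast markers at 100 TPM or more in fibroblasts stood at a median of 0.167% of their fibroblast level, up to 0.401%. Fscn1 (0.250%) was within that range, and Cttn (0.433%), Nckap1 (0.851%), Pfn2 (0.958%) and Enah (1.15%) were above it. Pfn2 and Enah were under 100 TPM in fibroblasts, and Was, Coro2a, Cyfip2 and Abi3 were under 100 TPM in macrophages. The marker ranges, taken at 100 TPM or more, are not a like measure for these genes. Subtracting the median shares left the calls of all 56 genes as they were. For called genes the subtraction mostly lowers the smaller value and so widens the ratio, and it could hardly have removed a call.

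In GENCODE M21 transcripts, no member shared a single 31-base word with a member of its own family. The largest shared parts were with other genes: 34.2% of the words of Actr3, mostly with Gm8822, at 0.511 and 0.528 TPM, and 32.0% of those of Tmsb10, mostly with Gm9844, at 0.802 TPM and 0. In all, 12 members shared over 5% of their words with other genes, none over 50%, among them Twf1 (17.3%), Arpc1b (13.2%), Cfl1 (13.2%) and Coro1b (13.1%). Reads from such stretches can be assigned to either gene, so these values are less certain.

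Upstream of these machines lie the Rac and Cdc42 inputs. Of 33 listed GTPases, adaptors and exchange factors, 31 were at 5 TPM or more, and of these 9 were called toward macrophages, 3 toward fibroblasts and 19 in neither direction. Among all genes at that level, 8.77% were called toward macrophages and 14.3% toward fibroblasts. The median log2 ratio of the 31 was -0.53. Rac2, the blood-cell Rac, stood at 152 TPM in macrophages and 0.0990 in fibroblasts, and its exchange factor genes Vav1 and Dock2 at 143 against 0.158 and 92.8 against 0.175. Fnbp1, which links Cdc42 to N-WASP at membranes, was at 130.3 against 29.4 TPM, close to the limit. On the fibroblast side were Rhoj, Tiam2 and Baiap2l1, with 79.5, 11.7 and 6.79 TPM there and 1.35, 0.552 and 0.485 in macrophages. The shared GTPase genes Rac1 and Cdc42, named after their values were seen, stood at 484 and 433 TPM in fibroblasts and 457 and 692 in macrophages.

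Other Arp2/3 regulators mostly did not pass the rule, with 2 of the 17 at 5 TPM or more (18 listed) called toward macrophages and 1 toward fibroblasts, beside 8.77% and 14.3% of all genes at that level, and a median of -0.11. Pstpip1, a WASP-binding protein of blood cells, and Gmfg, a debranching protein, stood at 129 against 2.30 TPM and 75.6 against 0.713. Arpin, encoding an inhibitor of Arp2/3, was higher in fibroblasts at 36.3 TPM against 4.36. Of 32 capping, severing and bundling genes, 24 were at 5 TPM or more, with 5 called toward fibroblasts, 1 toward macrophages and 18 in neither direction, and a median of 0.69. The counts of this list and the next are small, and the same shares of all genes apply to them. The crosslinker gene Actn1 stood at 719.8 against 81.7 TPM, Lima1 at 137 against 15.4 and Flnc at 81.3 against 0.128, and Rcsd1, a capping protein regulator, at 0.220 against 27.0. Of 14 genes around cofilin, all at 5 TPM or more, 2 were called toward fibroblasts, which is the share of all genes at that level, and none toward macrophages, at a median of 0.42: Rock2 at 116 against 17.1 TPM and Pak3 at 9.62 against a listed 0. All genes at 5 TPM or more had a median of 0.26.

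**Figure D5:**
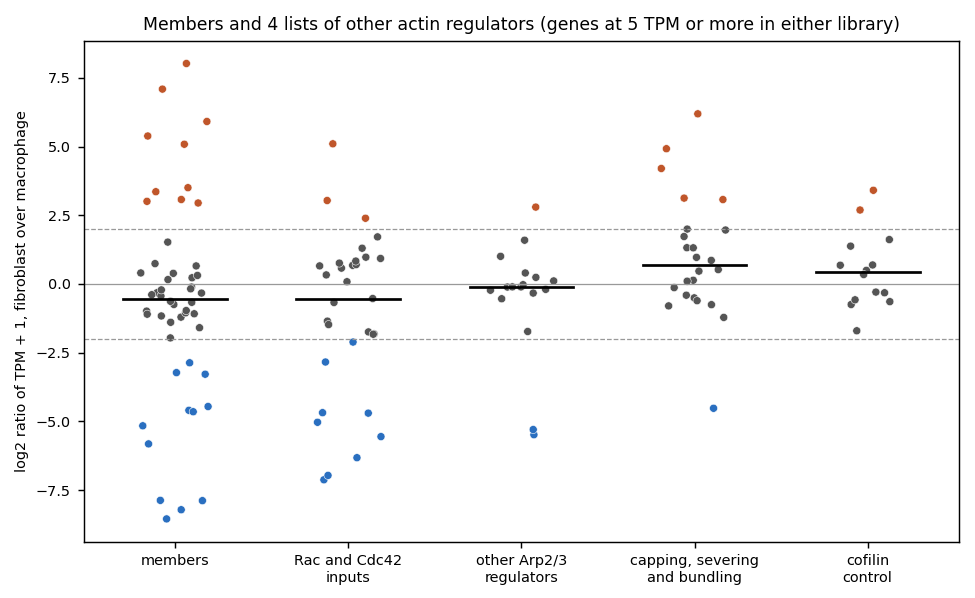
Log2 ratio of TPM plus 1, fibroblast over macrophage, of the 56 genes and of 4 lists of other actin regulators, for genes at 5 TPM or more in either library. Bars are medians, from -0.53 for the 50 members at that level and for the Rac and Cdc42 inputs to 0.69 for capping, severing and bundling. Dashed lines mark 4-fold.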

How the data were processed

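Poly(A) RNA was sequenced in paired reads of 76 bases from a stranded library of each cell type, per the labels' protocols. The deposited values are TPM by their range and totals (999545 and 999609 summed), since no header names the unit. The submitters' processing notes name kallisto 0.43.1 and the build GRCm38, while the transcript set and any filters are not stated in what was used here. Rows sharing a symbol were added. Members and lists were chosen with earlier results of these data known. All members are named or counted, and each further list names at most its 4 most abundant called genes in either direction, unless stated, and 1 such gene is not reported here. Families, sums and shares were computed from the TPM with python 3.11.15 and pandas 2.3.3, and coding sequences were aligned with biopython 1.88. Coordinates come from GENCODE M21, an annotation of GRCm38, which held all 56 symbols. Identity of paralogs was measured on coding bases, as no protein table was used here. Promoters came from RefSeq, and Abi2, Abi3, Actr3b, Arpc5l, Coro1b, Cotl1, Cttn, Cyfip1, Nckap1, Nckap1l and Twf2 had no window. The 7 motifs were searched on both strands, and the CArG box, an SRF site, by its usual consensus. The calling rule was run on simulated tables with planted changes and an assumed noise. That checks the code and not the calls, since the noise of 1 library per cell type is unknown. Alternatives were other pseudocounts (0.1, 5), minimums (1, 10 or none), a 2-fold threshold, 2 rescalings, single rows and subtraction of the other cell type's marker share.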

Additional observations from a re-analysis of the deposited data

How the results depend on the processing

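Over 10 alternatives, 20 of the 22 called members kept their call in each, and none of the called ratios turned. Most alternatives could hardly remove a call. A lower pseudocount, a lower or no minimum and a 2-fold threshold only relax the rule. Single rows change only Coro1b, which was not called, and the marker subtraction mostly widens the ratios of called members. Calls could be lost mainly with a pseudocount of 5, a minimum of 10 TPM or the 2 rescalings. Wasf1 lost its call with a pseudocount of 5 or a minimum of 10 TPM, and Cap2 with a pseudocount of 5. Twf2 was called higher in macrophages with a pseudocount of 0.1 and under both rescalings. Wasf3 and Coro6 were called higher in fibroblasts with a minimum of 1 TPM or none. Coro6 was also called so under the rescaling that left out mitochondrial genes and the 50 highest genes. A 2-fold threshold gave 20 members higher in macrophages, among them Arpc1b, Arpc2, Arpc3 and Tmsb4x, and 11 in fibroblasts. Of all 34295 genes of the table it called 1698 toward macrophages and 2637 toward fibroblasts. Over the 4 further lists it called 42 genes in place of 23. With a pseudocount of 5, 896 and 652 genes of the table were called higher in fibroblasts and macrophages, in place of 1602 and 981. Median-of-ratios scaling shifts log2 ratios by up to 0.18 toward macrophages, and by less for genes that are low in either library. Families with a different leading paralog numbered 7 over members at 5 TPM or more, without coronin type II, and 8 otherwise. The CAP sum passed 2-fold under both rescalings, leaving 9 families within it. No paired analysis was possible because each group has 1 library.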

Other observations

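Set against the cytoplasmic actin genes, which are no members and were chosen after their values were seen, the monomer binders differed more than on their own. For Actb the values were 3940.2 and 4292 TPM in fibroblasts and macrophages, and for Actg1 5070.2 and 2008. The summed TPM of Tmsb4x, Tmsb10, Pfn1 and Pfn2 was 0.783 of that of Actb plus Actg1 in fibroblasts and 2.21 in macrophages. The summed Arp2/3 genes stood at 0.304 and 0.833 of the same actin sum. These are ratios of transcript levels in 1 library each, and protein was not measured.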
